A study of Mus musculus with 89 samples.

Results

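Alternative exons of 61 to 299 nucleotides (nt) whose length is not a multiple of 3 were examined in RNA of the nucleus accumbens, part of the reward circuit of the mouse brain. They were taken from a deposited table of exon skipping events, where each entry, called an event, joins 1 exon to an exon on either side of it. A member had a mean of at least 20 reads per library and a mean inclusion level from 0.1 to 0.9 over the 5 libraries of the table. This left 1208 of 27900 events, covering 1120 exons in 963 genes. The inclusion level is the share of transcripts with the exon among those that either include it or join its neighbours directly, after each read count is divided by the length of its form.

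The series examined trimethylation of lysine 36 of histone H3 (H3K36me3), a mark found along the bodies of active genes, and its relation to splicing. Of its 89 samples, 9 were RNA libraries of punched nucleus accumbens from wild-type C57BL/6 mice of 8 weeks after a herpes simplex virus vector (HSV), 3 each for HSV-GFP, HSV-Set2 and HSV-R195G. Set2 is an H3K36 methyltransferase, and R195G is the label of the vector with that substitution. Another 32 were RNA runs of mice of the same strain, age and genotype after dCas9-SET2, a cleavage-dead Cas9 fused to SET2, with a guide named SRSF11 or a guide named NT, 16 runs each, and the other 48 samples were not analysed here. The HSV table sets 2 libraries (here set A, with A1 and A2) against 3 (set B, with B1, B2 and B3) and names neither set, so no vector was assigned to either. All differences below are B minus A, and levels are given in the order A1 and A2 against B1, B2 and B3. A punch holds infected and uninfected cells of every type, and nothing says which animals were pooled or shared.

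In coding sequence, an exon whose length is not a multiple of 3 shifts the reading frame after it when skipped or included. One of the forms then usually meets an early stop codon or ends in another carboxyl terminus. Messages with an early stop are known to be degraded by nonsense-mediated decay, which is triggered by exon junction complexes left downstream of the stop. Genes of SR proteins and other splicing factors are known for such exons, through which their own message level is controlled. In neurons, other frame-shifting exons are known to give receptors, pumps and adaptors a second carboxyl terminus.

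Of the 1208 events, 646 had a length that leaves 1 nt and 562 a length that leaves 2 nt after division by 3. The median exon was 116 nt long (quartiles 90.5 and 154 nt) and had 61.3 reads per library (quartiles 34.8 and 125). The introns before and after it had medians of 2283 and 2323 nt, against 2272 and 2590 nt around alternative in-frame exons of the same length range. Of the 963 genes, 938 were found by symbol in RefSeq, where 921 are protein coding. Another 14 are long noncoding RNAs, for which a reading frame has no meaning. Frame was judged from exon length alone, and whether a member lies in coding sequence was not examined.

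Most members were included more often than not. The mean inclusion level was 0.7 or above in 648 events (53.6%), from 0.3 to below 0.7 in 331 (27.4%) and below 0.3 in 229 (19%). Of the 1440 in-frame events chosen by the same length, reads and inclusion, 601 (41.7%), 540 (37.5%) and 299 (20.8%) fell in these ranges. The median member stood at 0.705 and 0.719 in set A and at 0.702, 0.726 and 0.705 in set B. The median in-frame event stood lower in every library, from 0.608 to 0.638. Frame-shifting lengths made up 45.6% of the 2648 events of 61 to 299 nt with inclusion from 0.1 to 0.9, against 59% of the 15560 above 0.9 and 58.1% of the 1042 below 0.1. These are descriptions of the table with no test, since inclusion chose the members.

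**Figure D1:**
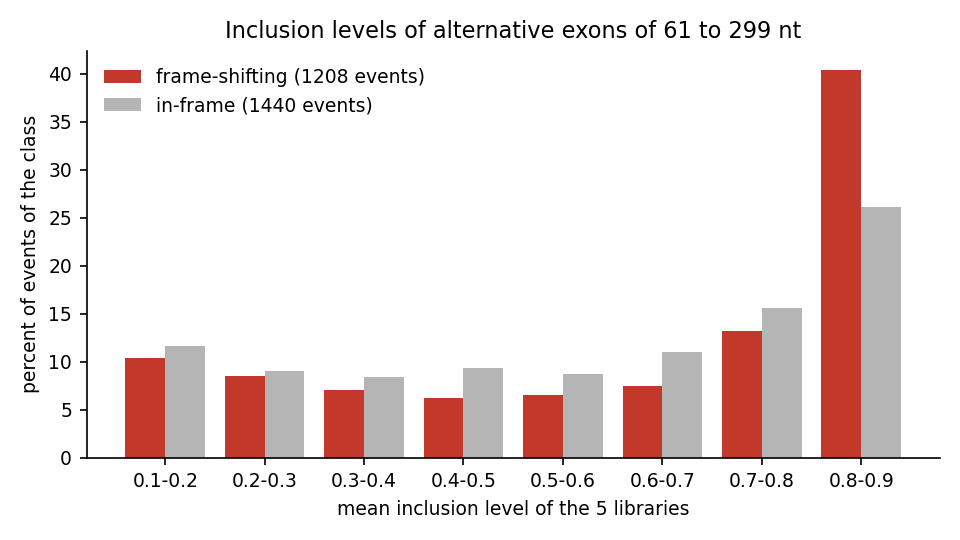
Percent of events (y axis) in each range of mean inclusion level (x axis), for frame-shifting (red) and in-frame (grey) alternative exons of 61 to 299 nt. The range from 0.8 to 0.9 holds 40.4% of frame-shifting and 26.1% of in-frame events, and frame-shifting events are the smaller share in each of the other ranges.

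The thresholds cut through a continuous range. Just inside the lower inclusion limit stood exons of Dhx30 (0.1004) and Cxcl16 (0.1012), and just outside it exons of Mthfs (0.0988) and Serpinb6a (0.0986). At the upper limit, exons of Skiv2l (0.9) and Ccdc127 (0.8998) were inside, and exons of Bpnt1 (0.9002) and of the gene ENSMUSG00000086878 (0.9002) outside. By reads, exons of Nrg2 and Ecpas had 20 reads per library and were kept, while those of Eya1 (19.8) and Cspp1 (19.6) were left out.

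The deepest members show how steady inclusion could be. A 70-nt exon of Ncdn, the neuronal protein neurochondrin, had 2226 reads per library and inclusion of 0.114 and 0.123 in set A and 0.120, 0.130 and 0.127 in set B. A 70-nt exon of Apod, the lipid carrier apolipoprotein D, had 2041 reads and stood at 0.725 and 0.736 against 0.746, 0.762 and 0.777. For the 113-nt exon of Capzb, a subunit of the actin capping protein, 1388 reads gave 0.157 and 0.195 against 0.175, 0.171 and 0.176. The Ncdn and Capzb libraries of the sets overlapped, those of Apod lay just apart, and none of the 3 passed the test (adjusted p = 0.759, 0.483 and 0.922, limma). The other pair of the 5 deepest, in Nnat and Matr3, is described below.

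Inclusion of a typical member moved between libraries of a set as well as between the sets. The median gap within set A was 0.079 and the median range within set B 0.14, while the means of the sets differed by a median of 0.0639. Means average over libraries and so vary less than single libraries, and these measures cannot be compared directly. The gap within set A was 0.11 for the 501 members with 20 to 50 reads and 0.039 for the 145 with at least 200. A difference of 0.1 in a shallow member is close to the median gap between libraries of set A.

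Marker genes of cell types and of the interferon response differed between the sets. Gene coverage here is CPM, the reads scaled to a common library total, in the deepest event of a gene that is not itself a member. That event can still share an exon or reads with a member. Its count can also move with its own splicing, so coverage is only a rough measure of message level. Of 9 measured markers of medium spiny neurons, the main neurons of the region, 8 were lower in set B (limma, adjusted p below 0.05), and their summed coverage was 7385 to 9249 CPM in set A and 3007 to 3204 CPM in set B. Over all 8007 genes measured, 9.64% were lower and 13.3% higher. All 9 measured interferon response genes were higher, with sums of 79.9 to 172 and 2759 to 3114 CPM. Of the other lists, 5 of 7 oligodendrocyte, 4 of 6 microglia and 2 of 5 astrocyte markers were higher and none was lower. Oligodendrocyte sums overlapped (6177 to 8343 and 8047 to 10501 CPM), microglia sums too (392 to 869 and 696 to 742 CPM), and astrocyte sums were 3581 to 3774 and 3815 to 3865 CPM. No measured marker was at 0, and none of 4 endothelial markers was measured. Fewer cells of a type and less RNA per cell cannot be told apart in such tissue, and the part of these shifts in the differences below was not tested. Summed event counts per library were 7428974 to 8638249 over all events and 124545 to 140362 over the members. A read shared by several events is counted in each.

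The inclusion of 34 members, in 33 exons of 29 genes, differed between the sets (limma on the logit of inclusion, adjusted p below 0.05). Of these, 19 were higher and 15 lower in set B, and 30 differed by at least 0.1. The 34 are 2.91% of the 1169 members with enough reads of the rarer form to be tested, beside 3.69% of all 7754 events tested and 7.20% of 1416 in-frame events. Higher calls were 1.69% and lower calls 2% of all events tested. The other 39 members had too few reads of the rarer form and were not tested. Of the tested members, 577 had a higher and 592 a lower mean inclusion in set B, with a median difference of -0.0010. No test compares the frame-shifting with the in-frame share, and their depth differs.

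More calls were made in deeper members. Members with 20 to 50 reads gave 0 calls in limma out of 462 tested, with 31 at unadjusted p below 0.05 and 59 called in the authors' deposited table. With 50 to 100 reads 4 of 327 (1.22%) were called, with 100 to 200 reads 9 of 235 (3.83%), and with at least 200 reads 21 of 145 (14.5%). In-frame events of these depths gave 2 of 418, 14 of 393 (3.56%), 21 of 310 (6.77%) and 65 of 295 (22%). Members included at 0.7 and above were called in 7 of 609 (1.15%), against 13 of 331 (3.93%) from 0.3 to 0.7 and 14 of 229 (6.11%) below 0.3. In-frame events in these ranges gave 30 of 577 (5.2%), 52 of 540 (9.63%) and 20 of 299 (6.69%). Of the 34, 25 leave a remainder of 1 nt and 9 of 2 nt, beside 646 and 562 of all members. The 25 include Kctd17 events that share skipping reads. Set A and set B lay apart, with no library of one within the other, in 312 members tested (26.7%), beside 27.8% of all events tested. Among called events they lay apart in 33 of 34 members, 98 of 102 in-frame events and 275 of 286 events of the whole table. This is thus not particular to the members.

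**Figure D2:**
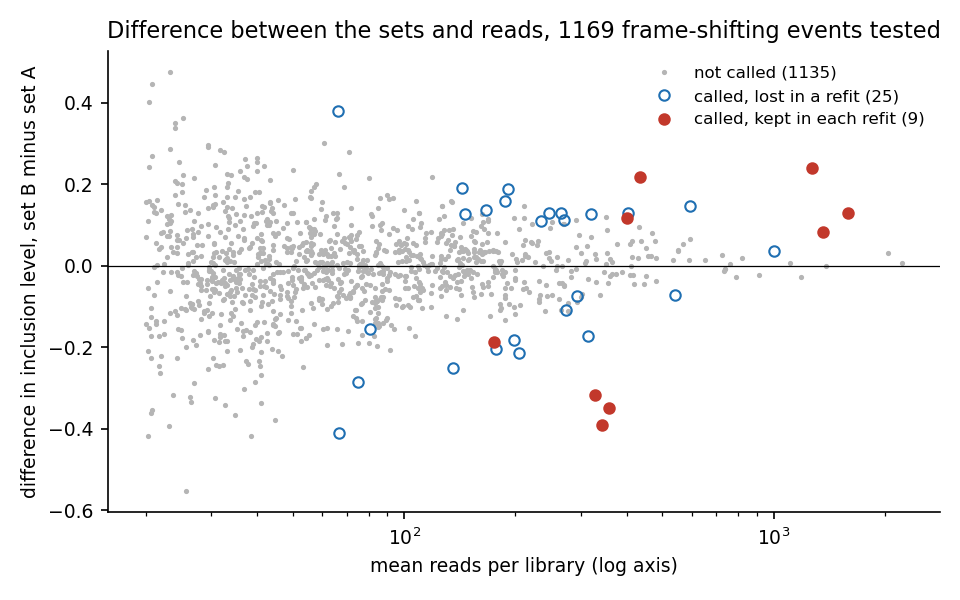
Difference in inclusion, set B minus set A (y axis), against mean reads per library (x axis, log scale) for the 1169 members tested. Of the 34 called, 9 (filled red) kept the call without each library in turn and with a spread per read depth, 25 (open blue) lost it in at least 1 of these fits, and the grey points fan out toward few reads.

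In the authors' deposited table, 136 of the 1169 members (11.6%) had an FDR below 0.05, beside 974 (12.6%) of all events tested. Of the 34 called here, 32 were among them. The limma fit shared 1 spread over all events, scaled by reads, so that very deep members can reach small p-values from small differences. With a variance between libraries added to the weights, 18 members were called (1.54%, beside 2.21% of all events), and without weights 0 in limma, with 93 of 1169 members at unadjusted p below 0.05. The p-values of the weighted fit thus rest on reads and a spread pooled over events, and hardly on the spread between the 5 libraries in each member. Nothing says that the libraries came from separate animals, so the pooled spread may be technical.

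Only 9 events in 7 genes (0.77% of members tested, beside 1.06% of all events) kept their call when each library was left out in turn and when the spread was fitted by read depth. They were 4 lower events, in Kctd17 and Mul1, and 5 higher ones, in Gpm6b, Fhl1, Nnat, Atp2b2 and Matr3. In each of them every library of one set lay beyond every library of the other, as in 275 of all 286 called events.

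Kctd17, a BTB-domain adaptor of cullin ubiquitin ligases, held 3 of the 4 lower events. A 94-nt exon (chromosome 15, 78267331 to 78267424, in the coordinates of the table) had 290 and 231 inclusion reads in set A and 73, 66 and 60 in set B. Reads that skip it were more in set B, at 147 and 128 against 240, 251 and 226. Inclusion fell by 0.391, from 0.537 to 0.146 in the means of the sets (logit difference -1.91, SE 0.16, adjusted p = 3.78e-31, limma).

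A longer form of that Kctd17 exon, 199 nt with the same start, stood at 0.476 and 0.462 against 0.131, 0.116 and 0.113 (adjusted p = 1.39e-31, limma). An 88-nt exon further downstream (78268014 to 78268101) stood at 0.493 and 0.486 against 0.161, 0.181 and 0.171 (adjusted p = 2.61e-20). All 3 events are set against the same skipping reads between the same neighbours, so they are not independent, and all 3 lengths leave a remainder of 1 nt. When the 94-nt exon was measured against its nearest downstream neighbour, its inclusion was 0.830 and 0.787 against 0.815, 0.596 and 0.801 and the sets overlapped (adjusted p = 0.176). Coverage of Kctd17 outside the members was lower too, at 321 and 288 CPM against 165, 171 and 168 CPM (log2 difference -0.85, SE 0.10, adjusted p = 4.04e-05, limma).

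Mul1 encodes a ubiquitin ligase of the mitochondrial outer membrane. Its 220-nt exon (chromosome 4, 137992095 to 137992314) stood at 0.414 and 0.371 in set A and at 0.222, 0.219 and 0.172 in set B, with 175 reads per library. The fall of 0.188 passed with less room than the other kept calls (logit difference -0.90, SE 0.20, adjusted p = 0.000744, limma, and at most 0.0340 without 1 library). Coverage of Mul1 did not pass the test, at 49.4 and 65.8 CPM against 56.4, 67.1 and 73.1 CPM (adjusted p = 0.464).

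Gpm6b, a four-transmembrane proteolipid of neurons and glia, had the largest kept rise. Its 91-nt exon (chromosome X, 162823323 to 162823413) stood at 0.186 and 0.201 against 0.399, 0.457 and 0.445, with 1271 reads per library. Inclusion rose by 0.240 (logit difference 1.15, SE 0.08, adjusted p = 5.71e-47, limma). Coverage of Gpm6b outside the members fell at the same time, from 754 and 640 CPM to 453, 407 and 449 CPM (log2 difference -0.67, adjusted p = 0.000220).

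Fhl1 encodes a LIM-domain protein. Its 200-nt exon (chromosome X, 54044416 to 54044615) rose from 0.278 and 0.315 to 0.528, 0.523 and 0.491, from 154 and 178 inclusion reads to 376, 333 and 358. Skipping reads were 171 and 166 against 144, 130 and 159 (logit difference 0.91, SE 0.14, adjusted p = 6.96e-09, limma). A 187-nt exon of Fhl1 just before it stood at 0.912 and 0.821 against 0.861, 0.885 and 0.897, and the sets overlapped (adjusted p = 0.779).

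Nnat, neuronatin, is a small membrane protein of the endoplasmic reticulum made in the developing brain. Its 76-nt exon (chromosome 2, 157386949 to 157387024) stood at 0.112 and 0.169 against 0.256, 0.262 and 0.287 with 1588 reads per library (logit difference 0.79, SE 0.09, adjusted p = 4.96e-17, limma). Inclusion reads went from 172 and 265 to 697, 660 and 678 and skipping reads from 909 and 865 to 1343, 1234 and 1118, so both forms had more reads in set B. Coverage of Nnat outside the members rose from 334 and 344 CPM to 688, 730 and 694 CPM (log2 difference 1.05, adjusted p = 1.62e-06). A second event of the same exon, with 40 reads per library, stood at 0.117 and 0.221 against 0.472, 0.359 and 0.375 and did not pass (adjusted p = 0.50).

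Atp2b2 is a plasma membrane calcium pump whose carboxyl terminus is known to differ between splice forms. Its 172-nt exon (chromosome 6, 113705211 to 113705382) had 77 and 93 inclusion reads against 140, 114 and 175, and skipping reads of 353 and 342 against 264, 208 and 242. Inclusion rose by 0.116, from a mean of 0.102 to 0.218 (adjusted p = 4.79e-07, limma), with no call for the coverage of the gene (203 and 210 against 186, 198 and 210 CPM, adjusted p = 0.693). Another Atp2b2 exon of 127 nt stood at 0.625 and 0.305 against 0.427, 0.333 and 0.335, with overlapping sets.

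Matr3, a nuclear matrix protein that binds RNA, had the smallest kept difference. Inclusion of its 122-nt exon rose by 0.082, from 0.827 and 0.815 to 0.917, 0.891 and 0.901 with 1360 reads per library (logit difference 0.70, SE 0.13, adjusted p = 1.43e-05, limma). The skipping form had 162 and 160 reads against 65, 78 and 68, while inclusion reads were 1402 and 1281 against 1304, 1152 and 1126. This call was lost when a variance between libraries was added to the weights (adjusted p = 0.0840), the only one of the 9 to be so.

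**Figure D3:**
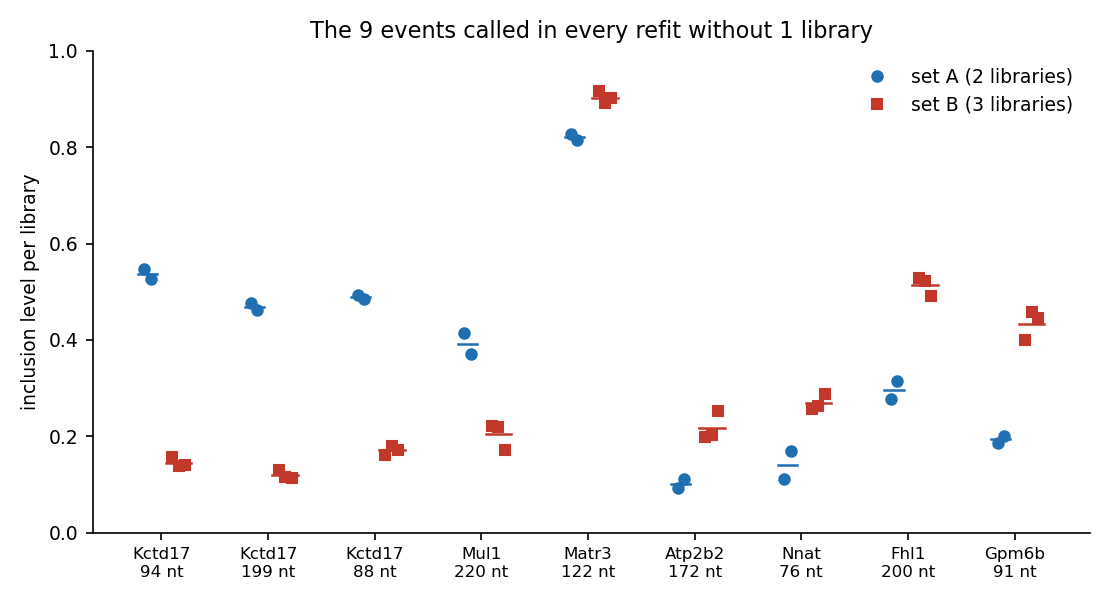
Inclusion level (y axis) in each library for the 9 events that kept their call, named by gene and exon length, with set A as blue circles, set B as red squares and the mean of each set as a line. The sets do not overlap in any of the 9, from Kctd17 (0.537 against 0.146 in the means) to Gpm6b (0.194 against 0.434).

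The other 25 called members lost their call in at least 1 fit without a library, and none changed sign. Leaving out A1 cost 23 of them the call, A2 11, and B1, B2 and B3 9, 9 and 10. Without A1 the fit called 12 members, 7 higher and 5 lower, and without A2, B1, B2 or B3 it called 26 to 28 (26 with 8 lower without A2, 28 with 12 higher without B3). Members with the larger differences are given here with the adjusted p in the full fit and the highest without 1 library (limma).

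Of the lower events among these, a 100-nt exon of the zinc finger gene Zfp932 was at 0.948 and 0.832 against 0.631, 0.439 and 0.741 (adjusted p = 0.0139, and 0.351 without B2, 0.211 and 0.0693 without A1 or A2). The sets were apart, but the libraries of set B were spread widely.

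The membrane scaffold gene Flot2 had 2 exons of 91 nt that went opposite ways. The downstream one (chromosome 11, 77868287 to 77868377) was at 0.625 and 0.600 against 0.319, 0.395 and 0.367 (adjusted p = 0.00314, and 0.0884 and 0.0684 without A1 or A2). The upstream one (77866865 to 77866955) was at 0.164 and 0.156 against 0.263, 0.312 and 0.312 (adjusted p = 0.0190). Its call held only without B1, with 0.150 and 0.226 without A1 or A2 and 0.0829 and 0.0774 without B2 or B3. Each of these Flot2 exons has a second event with other neighbours that was not called, at 0.632 and 0.777 against 0.688, 0.753 and 0.744 upstream and 0.841 and 0.917 against 0.720, 0.791 and 0.767 downstream.

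A further event of the 94-nt Kctd17 exon, with a downstream neighbour between those of the others, stood at 0.688 and 0.640 against 0.492, 0.444 and 0.416 (adjusted p = 0.00102, and 0.0763 without A1). Dnajc6 encodes auxilin, which uncoats clathrin vesicles, and its 65-nt exon was at 0.646 and 0.679 against 0.490, 0.439 and 0.446 (adjusted p = 0.00671, and 0.0762 and 0.174 without A1 or A2). The 97-nt exon of the bicarbonate transporter gene Slc4a4 was at 0.562 and 0.459 against 0.246, 0.363 and 0.375 (adjusted p = 0.00170, and 0.396 and 0.113 without A1 or B1). In all 3 set A and set B lay apart.

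The 64-nt exon of Ttc3, a ubiquitin ligase gene, was at 0.682 and 0.743 against 0.583, 0.481 and 0.554 (adjusted p = 0.00456, and 0.210 and 0.0685 without A2 or B2). Shtn1 encodes shootin, a protein of growing axons, and its 193-nt exon was at 0.259 and 0.287 against 0.131, 0.110 and 0.110 (adjusted p = 0.0361). The Shtn1 call was lost without any 1 of the 5 libraries (adjusted p from 0.0823 to 0.263).

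The higher events that lost their call began with Stxbp2, a partner of syntaxins in vesicle fusion. Its 82-nt exon was at 0.205 and 0.373 against 0.799, 0.678 and 0.524 (adjusted p = 0.00334, and 0.180 and 0.0712 without A1 or B1). A 101-nt form of the same exon, which shares its start, stood at 0.061 and 0.158 against 0.526, 0.354 and 0.212 and was not called (adjusted p = 0.128). With reads summed over the runs of each dCas9-SET2 set, the 101-nt form stood at 0.396 and 0.178. Its adjusted p in the authors' deposited table was 0.0327. The called 82-nt exon stood at 0.603 and 0.447 there and did not pass (authors' deposited adjusted p = 0.174).

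A 118-nt exon of the amino acid transporter gene Slc38a10 was at 0.698 and 0.771 against 0.933, 0.924 and 0.916 (adjusted p = 0.00912, and 0.271, 0.0624 and 0.0774 without A1, B1 or B3). Srr encodes serine racemase, which makes the NMDA receptor co-agonist D-serine, and its 226-nt exon was at 0.269 and 0.338 against 0.510, 0.560 and 0.403 (adjusted p = 0.00298, and 0.204 and 0.0764 without A1 or B2). The 101-nt exon of Rpp21, a subunit of ribonuclease P, was at 0.761 and 0.750 against 0.882, 0.922 and 0.938 (adjusted p = 0.0165, from 0.0884 to 0.134 without any 1 library but B1, where it was 0.0330). Each of these had separate sets.

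Dzank1 and Prmt5 lost their call only without A1. The 128-nt exon of Dzank1 was at 0.673 and 0.756 against 0.827, 0.869 and 0.885 with 593 reads per library (adjusted p = 1.80e-05, and 0.171 without that library). The 119-nt exon of Prmt5, an arginine methyltransferase that modifies spliceosomal proteins, was at 0.720 and 0.890 against 0.922, 0.926 and 0.956 (adjusted p = 0.00452, and 0.729 without it). In Prmt5 the 2 libraries of the smaller set thus lay further apart than the second of them and the other set. The remaining 10 lost calls had differences of 0.0367 to 0.129 in size.

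Most genes had a single member, 798 of 963, and 165 had more than 1. Of the 1120 exons, 78 were listed in more than 1 event with other neighbours. Among in-frame events these counts were 248 of 1027 genes and 126 of 1302 exons. The inclusion level of such an exon differed with the neighbours, with a median spread of 0.17 between its events and a spread of at least 0.3 in 21 exons. A 74-nt exon of Pum2, a translational repressor, stood at 0.218 in one event and 0.897 in another. Members that share an exon or skipping reads are therefore not independent.

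In 32 pairs of overlapping members, the exons shared one boundary and differed at the other. The length difference was a multiple of 3 in 13 of these pairs. In coding sequence, choosing between such sites leaves the frame of what follows as it was. In Hnrnpr, an RNA-binding protein gene, exons of 169 and 166 nt had near-equal inclusion of 0.619 and 0.624. In Mdm2, the ubiquitin ligase of p53, exons of 131 and 85 nt differ by 46 nt and had inclusion of 0.368 and 0.625.

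Separate exons that lie between the same neighbours formed 52 pairs in 42 genes. In 30 pairs both lengths leave the same remainder, so that in coding sequence exchanging one exon for the other keeps the frame. In the other 22 the remainders are 1 and 2 nt, and including both exons there would keep the frame. Each level is set against the transcripts that join the neighbours directly, so a pair need not sum to 1. The sum was from 0.9 to 1.1 in 9 pairs and above 1.4 in 19. U2af1, the subunit of the splicing factor U2AF that recognises the end of introns, had exons of 88 and 67 nt at means of 0.498 and 0.501. The 67-nt one was at 0.668 and 0.542 against 0.370, 0.421 and 0.504, with separate sets, and did not pass the test (adjusted p = 0.268). At the high end, exons of 109 and 103 nt of Usp33, a deubiquitinase gene, were at means of 0.879 and 0.851.

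**Figure D4:**
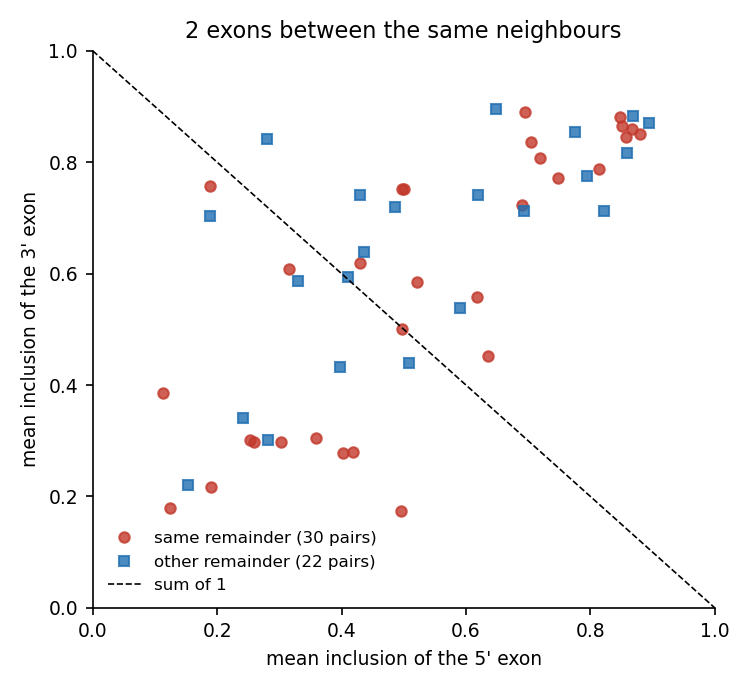
Mean inclusion of the 5′ exon (x axis) and of the 3′ exon (y axis) for the 52 pairs of separate members between the same neighbours, 30 with the same remainder (red circles) and 22 with other remainders (blue squares). The 9 pairs with a sum from 0.9 to 1.1 lie near the dashed line, and the 19 with a sum above 1.4 lie at the upper right.

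Gene groups were read from 9 lists, which hold 109 members in 86 genes. Each count of calls below stands beside 2.91% of members, 7.20% of in-frame events and 3.69% of all events tested. No list was tested against these shares, and such small counts are not read as results of a group. Of the SR and SR-related genes, which choose splice sites, 12 had 14 members, and 0 of the 14 were called in limma. Of these 14, 3 were at unadjusted p below 0.05 and 2 were called by the authors' deposited table. In-frame events of this list gave 0 calls of 7. A 109-nt exon of Srsf11, the gene that the SRSF11 guide is named for, had only 21 reads per library and stood at 0.036 and 0.225 against 0.430, 0.134 and 0.225 (adjusted p = 0.568). The 268-nt exon of Srsf6 had 257 reads and stood at 0.154 and 0.067 against 0.073, 0.125 and 0.104 (adjusted p = 0.769). A 79-nt exon of Srsf9 was at 0.268 and 0.173 against 0.129, 0.090 and 0.177 (adjusted p = 0.0996). The sets overlapped in all 3.

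The Clk genes encode kinases that phosphorylate SR proteins. Exons of 91 nt stood at 0.645 and 0.706 against 0.825, 0.625 and 0.874 in Clk1 and at 0.452 and 0.555 against 0.741, 0.573 and 0.618 in Clk4. A 67-nt exon of Clk4 stood at 0.444 and 0.261 against 0.252, 0.115 and 0.107. None passed the test (adjusted p = 0.710, 0.403 and 0.143, limma), and the sets overlapped in Clk1 but not in Clk4.

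Of 18 members of hnRNP and other RNA-binding protein genes 1 was called, Matr3. In-frame events of this list gave 4 calls of 13. The 2 forms of the Hnrnpr exon had similar levels, the 166-nt one at 0.584 and 0.542 against 0.678, 0.651 and 0.664 and the 169-nt one at 0.561 and 0.554 against 0.689, 0.637 and 0.656, and neither passed (adjusted p = 0.275 and 0.268). The 95-nt exon of Mbnl2, a neuronal splicing regulator, was at 0.363 and 0.432 against 0.459, 0.456 and 0.374 with overlapping sets. Coverage of this list was called in 21 of 60 measured genes (35%), 3 higher and 18 lower, beside 22.9% of all 8007 genes (13.3% higher and 9.64% lower). Medium spiny neuron markers were lower in set B in 8 of 9 genes and interferon response genes higher in 9 of 9, and their part in this count was not tested. The core spliceosome list had 1 in-frame event, which was not called. Of its 7 members 1 was called, the 76-nt exon of Sf1, the branch point binding protein. It was at 0.957 and 0.927 against 0.835, 0.891 and 0.887 (adjusted p = 0.0201, and 0.384 and 0.276 without A1 or B1).

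Nonsense-mediated decay and mRNA surveillance genes had 5 members in 3 genes, of which 4 were tested and 0 called in limma. Of the members, 1 was at unadjusted p below 0.05 and 1 was called by the authors' deposited table. The list had 1 in-frame event tested, which was not called. The 122-nt exon of Rnps1, an exon junction complex protein, was at 0.882 and 0.907 against 0.849, 0.785 and 0.843. Its adjusted p was 0.373, with separate sets. The level of the decay machinery itself was read from gene coverage. Of 21 measured genes of the list 0 were higher and 2 lower, beside 13.3% higher and 9.64% lower of all 8007 genes. Pabpc1, the cytoplasmic poly(A)-binding protein, was at 508 and 526 against 391, 412 and 402 CPM (log2 difference -0.36, adjusted p = 0.00550). Smg5, a decay factor that recruits the nucleases, was at 140 and 92.6 against 53.2, 78.0 and 58.5 CPM (log2 difference -0.87, adjusted p = 0.00670). Upf1, the central helicase of the pathway, was at 50.4 and 49.1 against 41.7, 51.2 and 35.9 CPM (adjusted p = 0.414), with overlapping sets.

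Postsynaptic genes had 9 members with 1 called and 36 in-frame events with 6 called, beside 2.91% of members and 7.20% of in-frame events tested. Presynaptic genes had 12 members with 1 called, Stxbp2, and 44 in-frame events with 9 called. Among those not called, a 92-nt exon of Grm7, a metabotropic glutamate receptor, was at 0.498 and 0.501 against 0.389, 0.370 and 0.455 (adjusted p = 0.579), with separate sets.

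Cytoskeleton and small GTPase genes had 9 members with 1 called and 81 in-frame events with 9 called. The called one was a 79-nt exon of Tpm1, a tropomyosin of actin filaments, at 0.137 and 0.198 against 0.232, 0.333 and 0.315 (adjusted p = 0.000759, and 0.211 without A1). Coverage of Tpm1, read from another event, fell from 242 and 207 CPM to 65.0, 56.9 and 55.2 CPM (log2 difference -1.92, adjusted p = 6.80e-07, limma). The called event itself had 99 and 124 inclusion reads against 76, 89 and 78. Its skipping reads were 409 and 330 against 165, 117 and 111. These events need not measure the same transcripts. The deep 74-nt exon of Dclk1, a microtubule-binding kinase, stood at 0.706 and 0.726 against 0.728, 0.677 and 0.673 with overlapping sets.

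Ion channel and transporter genes had 10 members with 2 called (2.91% over all members tested), Atp2b2 higher and Slc4a4 lower. Of 12 in-frame events of this list 1 was called. The exons of the sister pumps were not called. A 154-nt exon of Atp2b3 was at 0.732 and 0.794 against 0.635, 0.669 and 0.582 (adjusted p = 0.286, separate sets), and exons of Atp2b4 of 181 and 191 nt were at means of 0.889 and 0.862. A 160-nt exon of Cacnb4, a calcium channel subunit, was at 0.315 and 0.178 against 0.492, 0.492 and 0.428 (adjusted p = 0.0715).

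Of 25 members of chromatin and H3K36 methylation genes 0 were called in limma. In-frame events of these genes gave 5 calls of 35, beside 7.20% of all in-frame events tested. In this list 1 member was at unadjusted p below 0.05 and 0 were called by the authors' deposited table. Over all events tested, limma called 3.69% and the authors 12.6%. The 217-nt exon of Setd2, the mammalian counterpart of Set2, was at 0.071 and 0.085 against 0.115, 0.138 and 0.123 (adjusted p = 0.598), with separate sets. The 77-nt exon of Morf4l2 had 1183 reads and was at 0.183 and 0.234 against 0.187, 0.178 and 0.178 (adjusted p = 0.341). Across the 9 lists the median difference ran from -0.0828 in the spliceosome list to 0.0331 in the presynaptic list, beside -0.0015 over all events tested.

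Gene coverage was set beside inclusion. Coverage outside the members was measured in 769 of the genes, and 148 were called (19.2%, 77 higher and 71 lower), beside 22.9% of all 8007 genes. Of 22 genes with a called member, 10 were called in coverage, 5 higher and 5 lower. Over 954 tested members in 748 of these genes, the difference in inclusion and the log2 difference in coverage had a Pearson r of -0.0035 and a Spearman rho of 0.023. Both differences come from the same libraries, members of a gene share its coverage, and the coverage counts reads of a single event. Over the 27 called members with coverage r was -0.011.

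The dCas9-SET2 table offers the same exons in other mice. Its coordinates differ, so events were matched by gene, exon length and the distances to both neighbours, which found 696 of the 1208 members. Each set there sums 16 runs, with a median of 85 and 62 reads per member. Mean inclusion in the HSV libraries and in the dCas9-SET2 runs had a Pearson r of 0.901 and a Spearman rho of 0.886 across the 696 events, which are not independent replicates. The median gap was 0.0727, and 449 members (64.5%) lay within 0.1. Members were chosen for inclusion between 0.1 and 0.9 in the HSV libraries, and 84 stood above 0.9 and 27 below 0.1 in the other table.

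Among the 218 members with at least 100 reads in each dCas9-SET2 set, 8 lay more than 0.3 apart between the tables. A 268-nt exon of Srsf6 had a mean of 0.105 in the HSV libraries but stood at 0.495 and 0.618 in the sets of the other table, with 454 and 406 reads. A 274-nt exon of Rbm39, an SR-like splicing factor, went from 0.290 to 0.768 and 0.814 and a 169-nt exon of Atxn2, an RNA-binding protein gene, from 0.305 to 0.870 and 0.789. Iqsec3 stood lower in the other table, and its 271-nt exon had a mean of 0.764 against 0.412 and 0.475. The tables differ in vector, mice and the form lengths used, and the source of these gaps was not tested.

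**Figure D5:**
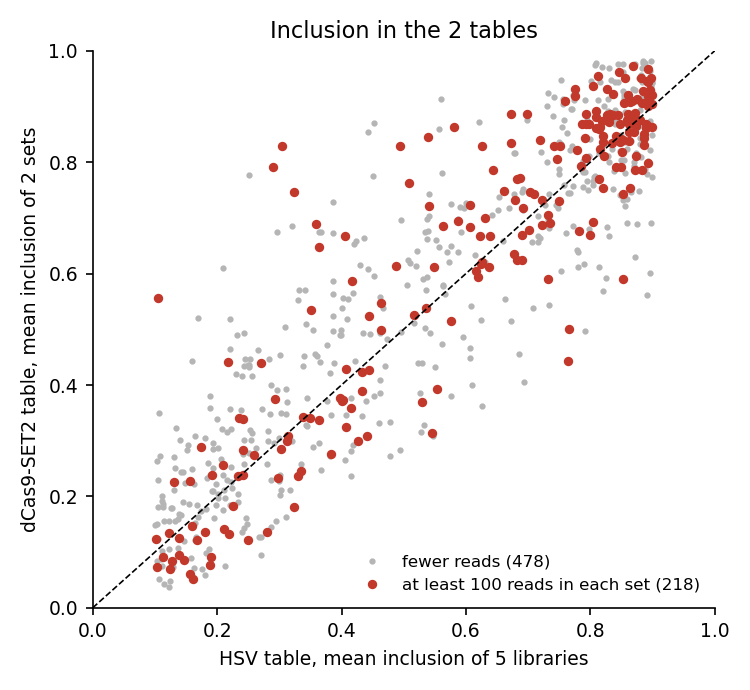
Mean inclusion of the matched members in the 5 HSV libraries (x axis) and in the 2 sets of the dCas9-SET2 table (y axis), with the 218 members of at least 100 reads per set in red, the others in grey and equality as the dashed line. Most points follow the line (r = 0.901 over 696 events), and a few such as Srsf6 (0.105 against 0.557) stand far above it.

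Between the dCas9-SET2 sets, the authors' deposited table gives an adjusted p below 0.05 for 36 of 685 matched members (5.26%). The share was 4.96% of its 5287 events with a value. By the sign of the deposited difference, 21 of the 36 were higher and 15 lower in the second set. Levels from reads summed over the runs can go the other way. In Vwc2l they were 0.896 and 1, from 21 and 6 reads, with a deposited difference of -0.612. The titles of the runs share stems, with 4 runs to a stem, so the runs may not be independent, and the sets carry no guide name. In the authors' deposited table the Srsf6 exon had an adjusted p of 0.0269 and the Apod exon one of 0.0273. A second event of the 65-nt Dnajc6 exon, not the one called in the HSV table, had one of 0.00140. Levels from the summed reads were 0.708 and 0.754 for Apod and 0.880 and 0.957 for this Dnajc6 event. The Dnajc6 event called in the HSV table stood at 0.697 and 0.747 from the summed reads. Its deposited difference was -9.1e-05, and it did not pass. None of the 7 kept events that could be matched, 3 in Kctd17 and those of Mul1, Fhl1, Nnat and Gpm6b, passed there.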

How the data were processed

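RNA of punched nucleus accumbens was measured, and 2 deposited tables of exon skipping events were used. The submitters' processing notes name Bowtie2, mm10, mm9 and STAR 2.4.1d without their roles, and the event caller and the build of each table are not given in the sources used here. Only 133 of 1176 member exons that could be placed lay inside their gene in GRCm38, so coordinates are as the authors deposited them, counted from 1, with no build. Each table holds inclusion and skipping reads per event, joined in cells as the authors deposited them. The p-value, FDR and adjusted p-value of each event are the authors' deposited values, from a test not named. The inclusion difference, a score from -1 to 1, is also the authors' deposited value. The 5 libraries and 32 runs in the cells carry no sample name.

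Levels recomputed from the reads matched those deposited. Reads within an exon count toward inclusion. Since libraries stand joined in cells, limma 3.58.1 (R 4.3.3) was run on the logit of inclusion with weights from the reads. For the logit, 0.5 was added to each read count before division by the form length. The fit covered 7754 events with at least 20 reads per library and 10 of the rarer form. Benjamini-Hochberg adjustment and a threshold of 0.05 were used. Gene coverage was tested with limma on log2 of TMM-scaled reads. The fits were also run on simulated data. For inclusion, the simulated spread between libraries was set below that estimated here (variance 0.0324 on the logit). That run thus cannot show how the inclusion fit performs at the spread of these data. Python 3.11.15, numpy 2.4.6, pandas 2.3.3, scipy 1.17.1 and matplotlib 3.10.9 were also used. Alternatives left out each library and changed the weights, spread, added count, filters and scaling.

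The members, lists and tests were chosen with earlier results of these data known. Named were the called members with the largest differences (up to 12 per direction, kept calls first), called list members, the 5 deepest and those nearest each threshold. Other members and genes named, such as list members that were not called, exon pairs and exons that differ between the tables, were chosen after their values were seen. Some members that this rule names are not reported here.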

Additional observations from a re-analysis of the deposited data

How the results depend on the processing

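Of the alternatives to the weighted limma fit (34 members called, 19 higher and 15 lower), a spread per read depth, another added count, at least 50 reads per library and 1 event per exon gave 32 to 36 calls. With no weights 0 were called (0 higher and 0 lower), and with a variance between libraries added to the weights 18 (9 higher and 9 lower). With no minimum of the rarer form 26 were called, of which 12 were higher, and with mean inclusion from 0.2 to 0.8 23, of which 11 were higher. The authors' deposited FDR gave 136 (62 higher and 74 lower). Leaving out 1 library gave 12 to 28 calls, 7 to 18 higher and 5 to 16 lower. The causes were not tested. Gene coverage called 148 member genes, 139 to 150 under other scaling, added counts and filters, and 108 to 174 (50 to 93 higher, 53 to 81 lower) without 1 library. No named member changed direction in any of these fits. No paired analysis was possible because the columns carry no replicate numbers. Depth limits the shallow members most, since 501 of the 1208 had 20 to 50 reads per library.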
